A study of Mus musculus with 12 samples.

Results

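The 8 genes described here carry the rhythm of the liver clock to its targets: Dbp, Tef, Hlf, Nfil3, Bhlhe40, Bhlhe41, Ciart, and Usp2. They were chosen by symbol, each had 1 row among the 22456 genes of the expression table, and all 8 passed the minimum mean of 0.5 RPKM (reads scaled by transcript length and by the mapped reads of the library) that left 11507 genes for testing. Of the 8, Usp2 encodes a ubiquitin protease and is not a transcription factor. Liver RNA was sequenced from 12 male BALB/cByJ mice aged 2 to 8 months, with 3 mice in each of 4 groups. WT mice were Lpin1+/+ littermates, and Lpin1-/- mice carried the fatty liver dystrophy (FLD) mutation of the whole body, not of hepatocytes alone. All mice were singly caged in a cool room for a 16-hour overnight fast. Fasted livers were taken at its end in the morning and refed livers after a further 5 hours with chow, so refeeding and time of day cannot be told apart. Genotypes were therefore compared within a feeding state first.

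DBP, TEF, and HLF are the PAR bZIP activators, which bind D-box elements in genes of detoxification and metabolism. NFIL3 (E4BP4) binds the same elements and represses, and in liver its rhythm runs opposite to that of DBP. BHLHE40 and BHLHE41 (DEC1 and DEC2) and CIART (CHRONO) repress the activation by CLOCK and BMAL1 at E-box elements, and USP2 removes ubiquitin from clock proteins.

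The promoters of the members are shown because the E-box is the element through which CLOCK and BMAL1 act. RefSeq promoters (250 bases before to 50 after the transcription start, GRCm38.p6) were at hand for 7 of the 8 members, with 2 for Tef. Bhlhe40 was not among them. The promoter of Usp2 (chr9:44084670-44084969) was that of a start within the gene, which begins at chr9:44067021, so its upstream start was not searched. The E-box CACGTG was searched on both strands and lay in the promoters of 3 members (Ciart, Bhlhe41, and Tef), against 7.15% of 32851 mouse promoters. The Ciart promoter held 3 E-boxes, beginning 116, 58, and 44 bases before the start. The stretches below are given 5′ to 3′ with the matches in capitals, from chr3:95882255-95882356 (minus strand) for Ciart, chr6:145865556-145865585 (minus) for Bhlhe41, and chr15:81802534-81802563 and chr15:81811264-81811293 (plus) for the 2 starts of Tef.
Ciart: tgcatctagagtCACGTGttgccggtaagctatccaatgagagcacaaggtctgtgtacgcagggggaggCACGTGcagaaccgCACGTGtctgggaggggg
Bhlhe41: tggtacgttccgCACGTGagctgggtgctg
Tef, first start: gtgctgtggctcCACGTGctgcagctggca
Tef, second start: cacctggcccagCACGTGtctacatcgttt

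Other response elements were matched in a pair of members. The cAMP response element TGACGTCA, found in 1.79% of promoters, lay 9 bases before the start of Hlf (chr11:90390918-90390938, minus strand). The core of the ROR response element, TAGGTCA, found in 2.61% of promoters, lay on the opposite strand 12 bases before the start of Nfil3 (chr13:52981040-52981063, minus strand). The D-box TTATGTAA or TTACGTAA, found in 1.06% of promoters, was in none of the 8 windows, which says only that these letters are not there. No match of one motif overlapped another, and a match is no evidence of binding.
Hlf: cggtgcgggcccTGACGTCAc
Nfil3: ggcgctcggaacTGACCTActaac

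As a check of the labels, Lpin1 itself (chr12, minus strand) lay at 22.0, 0.726, and 1.76 RPKM in fasted WT liver and at 0.0597, 0.0566, and 0.0368 in fasted Lpin1-/- liver. In refed liver it lay at 2.92, 0.784, and 2.76 RPKM in WT and at 0.00573, 0.0238, and 0.00962 in Lpin1-/- mice. Every Lpin1-/- library was below every WT library, and WT replicate 1 stood far above the other fasted WT mice. Relative depths ranged from 0.866 to 1.16 of that of fasted WT replicate 1. Hepatocyte markers were high in all libraries, with at least 11777 RPKM of Alb. Of 7 lists of cell type markers, none had a gene past the threshold between genotypes in either state. The summed RPKM of 6 stellate cell markers was 66.1 to 157 in fasted WT and 195 to 278 in fasted Lpin1-/- liver, and that of 6 Kupffer cell markers was 117 to 239 and 216 to 567. The stellate cell sum was mostly Dcn, with a median of 151 RPKM over all libraries, where each other marker had at most 6.10. Of the Kupffer cell markers, C1qa and Clec4f had the highest medians (69.2 and 43.4 RPKM). In refed Lpin1-/- liver the sum of Kupffer cell markers was 66.6 to 163, and 1 of them was called lower on refeeding in this genotype. The part of these cells in the differences below was not tested, and in whole liver fewer cells of a type and less RNA per cell cannot be told apart.

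In fasted liver, Lpin1-/- mice had more transcript of the repressors Nfil3, Bhlhe40, and Ciart and less of the activator Hlf. Of the 8 members, 4 passed an adjusted p of 0.05 (limma on log2(RPKM + 1), Benjamini-Hochberg over 11507 genes), where 18.8% of all genes did. In the direction of higher levels 3 members passed against 5.63% of all genes, and in that of lower levels 1 against 13.2%. The 3 libraries of each genotype did not overlap in 5 members, against 32.9% of all genes. The median log2 fold change was 1.01 over the members and -0.14 over all genes tested. With libraries rescaled by their median ratio, the median of all genes was 0.02, and 47.0% of calls were higher in place of 29.9%.

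**Figure D1:**
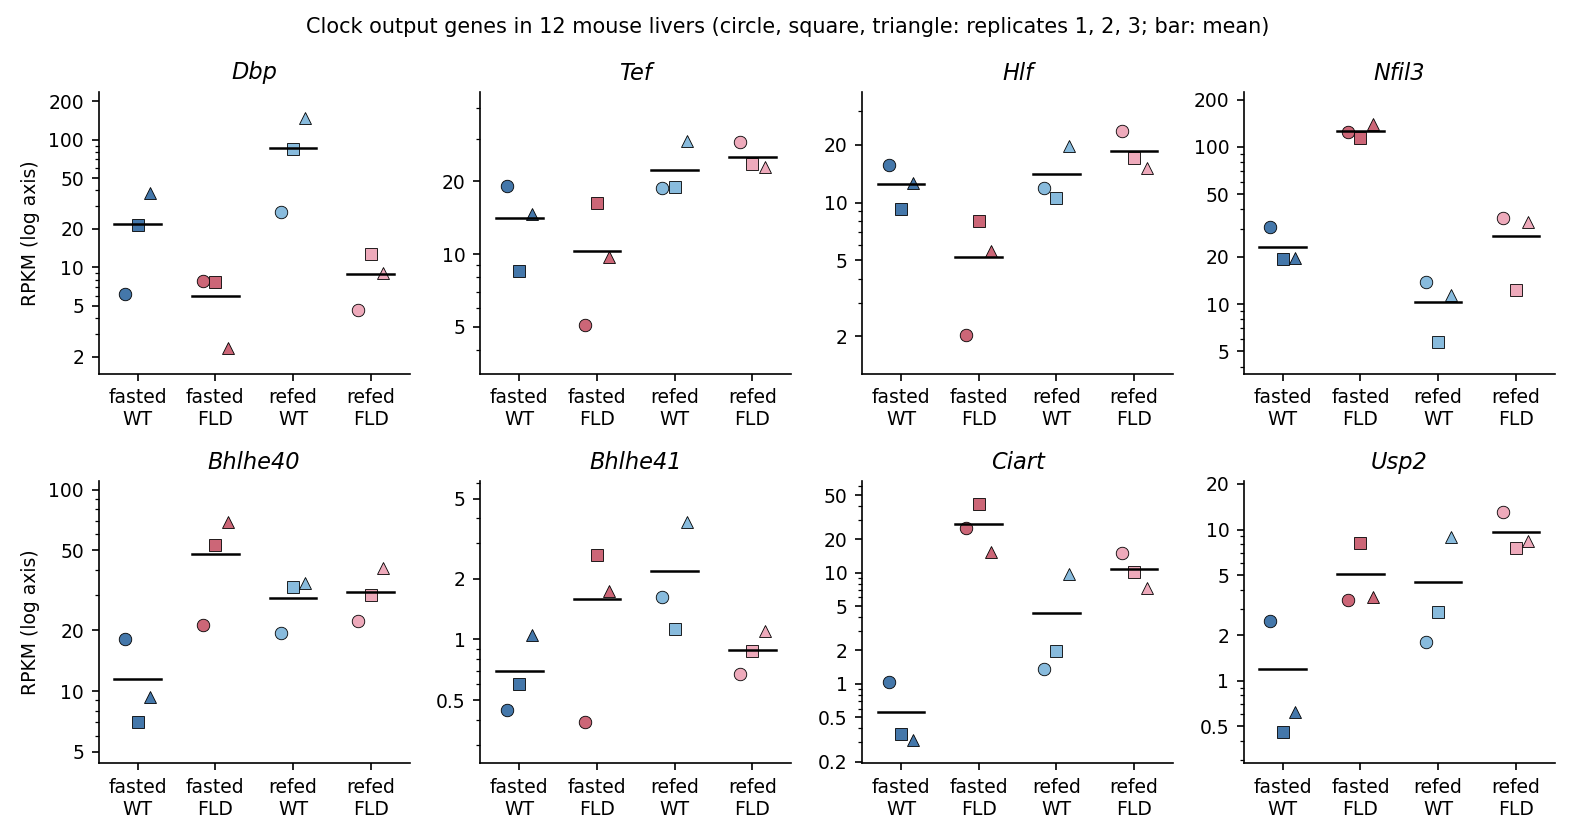
RPKM (log axis) of the 8 members in each of 12 livers, by group, with circles, squares, and triangles for replicates 1, 2, and 3 of a group and a bar at the mean. Nfil3 and Ciart are highest in the 3 fasted Lpin1-/- livers (FLD), and Dbp has its highest mean in the refed WT livers, which lie at 27.4 to 148 RPKM, with 1 fasted WT liver (38.4) above the lowest of them.

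Among the PAR bZIP activators, Hlf (ENSMUSG00000003949.16, chr11:90336536-90390895, minus strand) lay at 15.8, 9.25, and 12.6 RPKM in fasted WT liver and at 2.04, 7.98, and 5.58 in fasted Lpin1-/- liver. The groups did not overlap, and the mean was 2.42-fold lower in Lpin1-/- mice (log2 fold change -1.24, SE 0.38, adjusted p = 0.0409 by limma). This call was near the threshold. Without fasted Lpin1-/- replicate 1 the log2 fold change was -0.79 with an adjusted p of 0.127, and the call was also lost when either of fasted WT replicates 1 and 3 was left out (adjusted p = 0.109 and 0.114), as well as without fasted Lpin1-/- replicate 3 (0.0614) or refed WT replicate 1 (0.0563) or refed Lpin1-/- replicates 2 (0.0589) or 3 (0.0563). With rescaled libraries the adjusted p was 0.0507, with no filter on low values 0.106, and with only the fasted libraries 0.101.

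Dbp (ENSMUSG00000059824.12, chr7:45705088-45710203, plus strand) lay at 6.18, 21.3, and 38.4 RPKM in fasted WT liver and at 7.86, 7.66, and 2.34 in fasted Lpin1-/- liver. WT replicate 1 lay among the Lpin1-/- livers and the other WT livers above them (log2 fold change -1.54, SE 0.70, adjusted p = 0.152). Without that WT mouse the log2 fold change was -2.22 and the adjusted p 0.0471. Tef (ENSMUSG00000022389.15, chr15:81802421-81826863, plus strand) lay at 19.1, 8.52, and 14.7 RPKM in WT and at 5.11, 16.2, and 9.68 in Lpin1-/- liver. These overlapped, and the 95% interval of the log2 fold change was -1.28 to 0.33 (adjusted p = 0.405).

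The antagonist of these activators, Nfil3 (ENSMUSG00000056749.7, chr13:52967209-52981073, minus strand), lay at 30.9, 19.3, and 19.5 RPKM in fasted WT liver and at 124, 114, and 140 in fasted Lpin1-/- liver. All Lpin1-/- livers were far above all WT livers, with group means of 23.2 ± 6.60 and 126 ± 13.1 (SD, n = 3). The mean was 5.41-fold higher (log2 fold change 2.41, SE 0.39, adjusted p = 0.00223 by limma), and the call held in all 19 alternatives tried.

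Ratios within a library put both arms of the D-box side by side. The summed RPKM of Dbp, Tef, and Hlf was 1.33, 2.02, and 3.36 times that of Nfil3 in the 3 fasted WT livers and 0.121, 0.281, and 0.126 times in the 3 fasted Lpin1-/- livers. In refed liver the ratios were 4.23, 19.9, and 17.1 in WT and 1.62, 4.38, and 1.40 in Lpin1-/- mice. Activator transcripts thus summed to less than Nfil3 in the fasted Lpin1-/- livers and to more in the other 9 libraries, and the refed groups overlapped by a little. For Dbp alone the ratio to Nfil3 ran from 0.0168 in a fasted Lpin1-/- liver to 14.7 in a refed WT liver. These ratios combine values already described and were given no test.

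**Figure D2:**
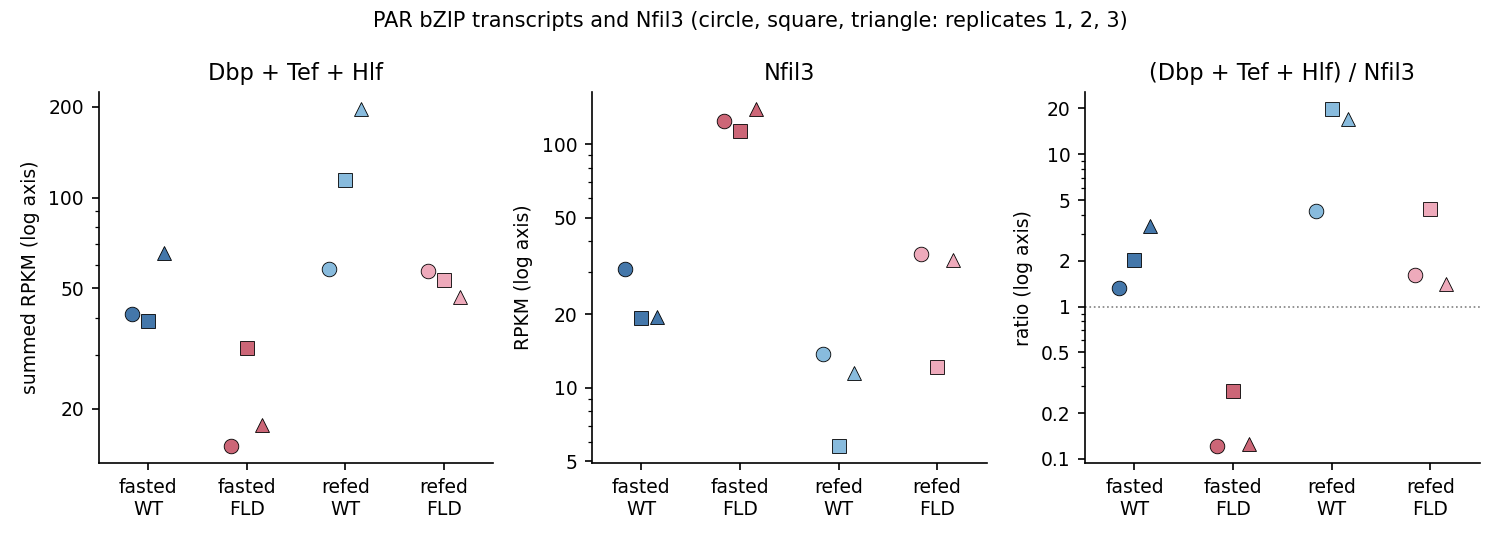
Summed RPKM of Dbp, Tef, and Hlf (left), RPKM of Nfil3 (middle), and their ratio (right) in each liver, all on log axes, with circles, squares, and triangles for replicates 1, 2, and 3. Only the 3 fasted Lpin1-/- livers (FLD) lie below the dotted line at a ratio of 1, between 0.121 and 0.281.

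Of the repressors of CLOCK and BMAL1, Ciart (ENSMUSG00000038550.10, chr3:95878503-95882251, minus strand) lay at 1.03, 0.351, and 0.310 RPKM in fasted WT liver and at 25.4, 41.7, and 15.4 in fasted Lpin1-/- liver. The lowest Lpin1-/- liver was above the highest WT liver by more than a factor of 10, and the mean was 48.8-fold higher. On the log2(RPKM + 1) scale, which understates a fold change from low levels, the difference was 4.11 (SE 0.53, adjusted p = 0.000717), rank 13 of 11507 genes by size. It passed in all 19 alternatives.

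Bhlhe40 (ENSMUSG00000030103.11, chr6:108660629-108666925, plus strand) lay at 18.2, 7.03, and 9.38 RPKM in fasted WT liver and at 21.4, 52.8, and 68.7 in fasted Lpin1-/- liver. The groups lay close at their edges without overlap, and the mean was 4.13-fold higher in Lpin1-/- mice (log2 fold change 1.90, SE 0.44, adjusted p = 0.0127). Without fasted WT replicate 3 the adjusted p was 0.0532. Its paralog Bhlhe41 (ENSMUSG00000030256.11, chr6:145858243-145865558, minus strand) was scarce, at 0.445, 0.604, and 1.05 RPKM in WT and 0.389, 2.63, and 1.73 in Lpin1-/- liver. Those overlapped, with a 95% interval of the log2 fold change from -0.28 to 1.3.

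Usp2 (ENSMUSG00000032010.15, chr9:44067021-44095627, plus strand) lay at 2.49, 0.457, and 0.620 RPKM in fasted WT liver and at 3.43, 8.19, and 3.57 in fasted Lpin1-/- liver. Although the groups did not overlap, the log2 fold change of 1.5 (SE 0.49) fell just short of the threshold (adjusted p = 0.0522). It passed with libraries rescaled (0.0271), with a pseudocount of 0.1 RPKM (0.0321), and without fasted WT replicate 1 (0.0265), refed WT replicate 1 (0.0474), or refed WT replicate 3 (0.0256).

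The fasted WT mice were not alike. Replicate 1 was the highest of the 3 in 6 members and the lowest in Dbp and Bhlhe41. It also had the most Arntl (encoding BMAL1), with 12.1 RPKM against 3.53 and 4.06. This mouse tended to lie higher beyond the clock genes as well. Without it, the fasted genotype comparison had a median of -0.07 over the genes tested, in place of -0.14. That median was -0.23 without replicate 2 and -0.12 without replicate 3. Whether the order within the members goes beyond this wider shift was not tested. In refed WT liver, replicate 3 was the highest of its group in 7 members and had the least Arntl, with 0.812 RPKM against 5.05 and 2.18. The sources used here do not say in which order or at which minute each mouse was sampled.

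In refed liver the genotypes differed in Dbp. It lay at 27.4, 84.8, and 148 RPKM in WT and at 4.63, 12.8, and 8.97 in Lpin1-/- mice, with no overlap and a wide spread in WT (86.6 ± 60.2, SD, n = 3). The mean was 9.84-fold lower in Lpin1-/- mice (log2 fold change -2.96, SE 0.70, adjusted p = 0.0318 by limma). It was the only member past the threshold without a replicate block, where 6.67% of all genes passed (2.6% higher and 4.07% lower, or 50.1% of calls higher in place of 39.0% with libraries rescaled). The call was lost without refed WT replicate 2 (adjusted p = 0.0764) or 3 (0.0997), without refed Lpin1-/- replicate 1 (0.122), 2 (0.0620), or 3 (0.0909), and with no filter on low values (0.0986). Its log2 fold change lay between -3.62 and -2.42 in all 19 alternatives.

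The repressors that were high in fasted Lpin1-/- liver lay closer to WT after refeeding. Nfil3 was at 13.7, 5.75, and 11.5 RPKM in refed WT and at 35.3, 12.2, and 33.5 in refed Lpin1-/- liver, where replicate 2 lay within the WT range (log2 fold change 1.25, SE 0.39, adjusted p = 0.0836). Nfil3 passed with the replicate number as a block common to fasted and refed libraries (adjusted p = 0.0392 by limma), so that 2 members, Dbp and Nfil3, passed in that fit. Without refed Lpin1-/- replicate 2 the value was 1.72 and the adjusted p 0.0283. Ciart was at 1.36, 1.96, and 9.67 RPKM in WT and at 15.0, 10.2, and 7.28 in Lpin1-/- liver, and WT replicate 3 lay within the Lpin1-/- range (log2 fold change 1.44, SE 0.53, adjusted p = 0.128). Without that WT mouse it was 2.11 with an adjusted p of 0.0276. Usp2 was at 1.79, 2.85, and 8.87 RPKM in WT and at 13.0, 7.53, and 8.34 in Lpin1-/- liver (log2 fold change 1.13, SE 0.49, adjusted p = 0.195), again with WT replicate 3 among the Lpin1-/- livers.

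Other members were not distinguishable between the refed genotypes at this spread. For Bhlhe40, at 19.5, 33.0, and 34.5 RPKM in WT and 22.4, 30.0, and 40.8 in Lpin1-/- liver, the 95% interval of the log2 fold change was -0.87 to 1.06. For Tef, at 18.8, 18.9, and 29.2 RPKM against 29.0, 23.5, and 22.8, it was -0.62 to 0.99. Hlf, called lower in the fasted comparison, was at 11.9, 10.6, and 19.7 RPKM in WT and 23.6, 17.1, and 15.2 in Lpin1-/- liver, with an interval of -0.42 to 1.23. Bhlhe41 was at 1.62, 1.13, and 3.82 RPKM in WT and 0.671, 0.876, and 1.11 in Lpin1-/- liver. It was lower in every Lpin1-/- liver, but with a log2 fold change of -0.67 (SE 0.36, adjusted p = 0.299). Bhlhe41 and Dbp were the 2 members without overlap, against 33.9% of all genes. The median log2 fold change was 0.30 over the members and -0.07 over all genes.

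**Figure D3:**
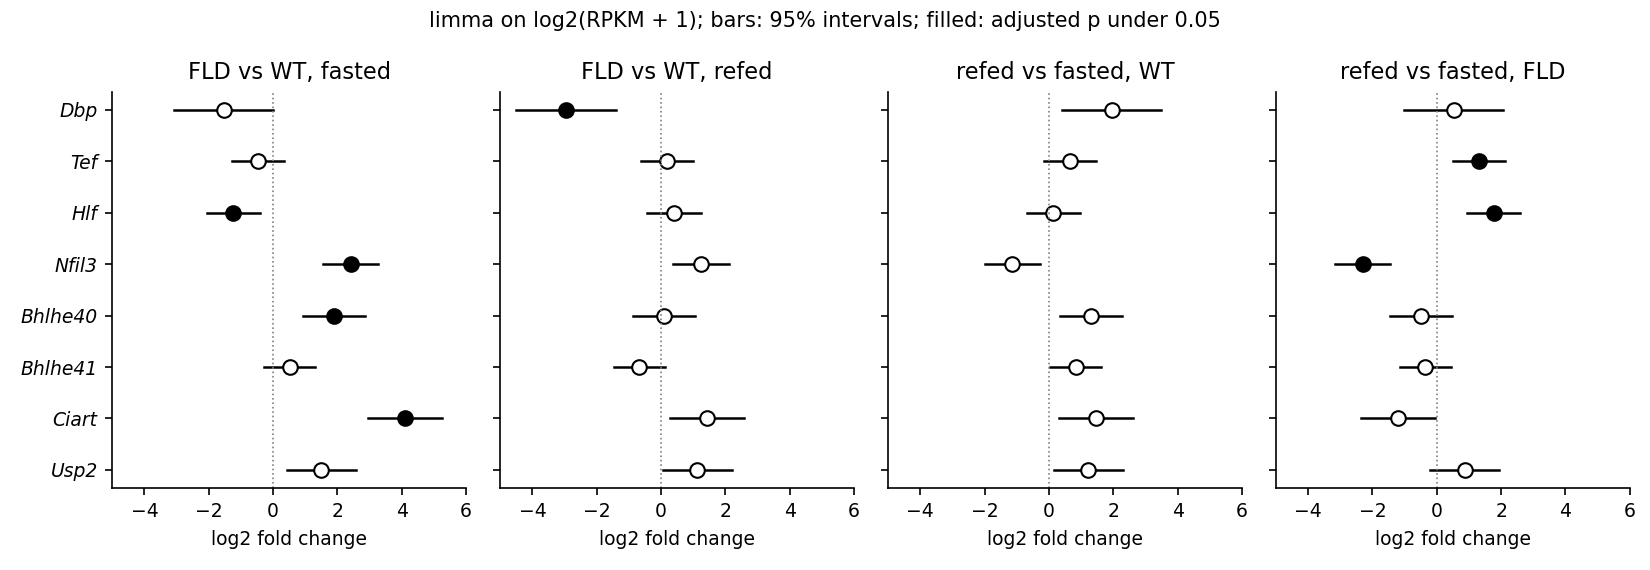
Log2 fold change of each member in 4 comparisons, on the log2(RPKM + 1) scale, with 95% intervals from limma. Filled points passed an adjusted p of 0.05: 4 in the fasted genotype comparison, 1 (Dbp, -2.96) in the refed one, none on refeeding in WT, and 3 on refeeding in Lpin1-/- liver (FLD).

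From the fasted to the refed state, Hlf and Tef rose and Nfil3 fell in Lpin1-/- liver. Hlf rose 3.58-fold (log2 fold change 1.77, SE 0.38, adjusted p = 0.00834), Tef 2.43-fold (1.32, SE 0.37, adjusted p = 0.0271), and Nfil3 fell 4.65-fold (log2 fold change -2.31, SE 0.39, adjusted p = 0.00306, limma). The groups did not overlap in these 3 or in Ciart, which was lower in every refed Lpin1-/- liver with a log2 fold change of -1.21 (SE 0.53, adjusted p = 0.120). The 3 calls stood against 20.7% of all genes (2 against 17.8% that rose and 1 against 2.92% that fell), and the 4 without overlap against 46.8%. With libraries rescaled, 59.0% of calls rose in place of 85.9%, the median of all genes was -0.03 in place of 0.25, and the adjusted p of Tef was 0.0624. Tef also lost its call without fasted Lpin1-/- replicate 1 (0.10) or 3 (0.0529), without refed Lpin1-/- replicate 1 (0.0823), 2 (0.0722), or 3 (0.0609), and with no filter on low values (0.0715). Hlf and Nfil3 passed in all 19 alternatives.

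In WT liver no member passed on refeeding by limma, where 1.72% of all genes did (1.52% that rose and 0.2% that fell). An unadjusted p under 0.05 was found for 6 members, and for at least 1584 of the 11507 genes. Libraries of the 2 states did not overlap in 4 members, against 18.1% of all genes. Bhlhe40, Bhlhe41, and Ciart were higher in every refed WT liver (log2 fold changes 1.32, 0.83, and 1.46, adjusted p = 0.196, 0.335, and 0.236) and Nfil3 lower (-1.14, adjusted p = 0.212). Dbp was 3.95-fold higher on average (log2 fold change 1.95, SE 0.70, adjusted p = 0.237), with refed replicate 1 inside the fasted range. The median log2 fold change was 1.03 over the members and 0.19 over all genes. With rescaled libraries the latter was 0.02, and 63.2% of calls rose in place of 88.4%.

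Relative to the fasted livers of its genotype, Ciart was thus higher in every refed WT liver and lower in every refed Lpin1-/- liver. The difference between the genotypes in the response was -2.67 on the log2 scale (SE 0.74, 95% interval -4.30 to -1.05, adjusted p = 0.102), rank 89 of 11507 genes by size. It missed the threshold after adjustment, as did that of Bhlhe40 (-1.81, SE 0.62, adjusted p = 0.164), Hlf (1.64, SE 0.53, adjusted p = 0.146), and Bhlhe41 (-1.19, SE 0.51, adjusted p = 0.251). These 4 had an unadjusted p under 0.05, as had at least 2011 of the 11507 genes. By limma 0 members had an adjusted p under 0.05, where 1.28% of all genes passed (0.791% with a positive and 0.487% with a negative difference). A genotype difference in one state and not in the other is therefore not shown to depend on the state for any member. The comparisons share their groups of mice, so their values are not independent.

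The order of the levels differed between groups. In fasted WT liver it ran Nfil3 (23.2 RPKM), Dbp (21.9), Tef (14.1), Hlf (12.6), and Bhlhe40 (11.5), whose neighbors overlapped, and then, without overlap, Usp2 (1.19), Bhlhe41 (0.700), and Ciart (0.564), which overlapped each other. In fasted Lpin1-/- liver Nfil3 (126) stood alone above Bhlhe40 (47.6), Ciart (27.5), Tef (10.3), Dbp (5.95), Hlf (5.20), and Usp2 (5.06), whose neighbors overlapped, and Bhlhe41 (1.59) came last, without overlap with Usp2 but within reach of the lowest values of Hlf and Dbp. In refed WT liver the order was Dbp (86.6), Bhlhe40 (29.0), Tef (22.3), Hlf (14.1), Nfil3 (10.3), Usp2 (4.51), Ciart (4.33), and Bhlhe41 (2.19), with overlap between all neighbors. In refed Lpin1-/- liver Bhlhe40 (31.0), Nfil3 (27.0), Tef (25.1), and Hlf (18.6) overlapped, as did Ciart (10.8), Usp2 (9.63), and Dbp (8.80). Hlf and its neighbor Ciart did not overlap, although Nfil3, at 12.2 RPKM in replicate 2, reached into the ranges of Ciart, Usp2, and Dbp, and Bhlhe41 (0.884) lay apart below all others. Dbp thus ranked first in refed WT liver and seventh in refed Lpin1-/- liver.

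Genes with the most similar profile were found by the root mean square difference of centered log2(RPKM + 1) over the 12 libraries. The closest pair of members was Tef and Hlf (0.31 on the log2 scale). Tef lay closest to Mtmr4 (0.20) and Fzd7 (0.24), and Hlf to Fzd7 (0.28) and AI464131 (0.28). The profile of Dbp lay closest to those of Isg15 (0.59), an interferon-induced ubiquitin-like protein, and Nrep (0.65), and that of Nfil3 to Ahcy (0.45), the hydrolase of S-adenosylhomocysteine, and Arl4a (0.50). For Bhlhe40 they were Mad1l1 (0.46) and the immediate early gene Ier2 (0.49), and for Bhlhe41 Smad6 (0.31) and Apex1 (0.33). Ciart lay closest to E130012A19Rik (0.77) and Thrsp (0.79), the latter induced with lipogenesis. These differences grow with the spread of a member about its own mean, which was largest in Ciart (1.66) and smallest in Bhlhe41 (0.52). They are therefore not to be compared between members. Usp2 lay closest to Fmo2 (0.53) and Fasn (0.57), the fatty acid synthase. Thrsp had group means of 23.8 RPKM in fasted WT, 417 in fasted Lpin1-/-, 202 in refed WT, and 374 in refed Lpin1-/- liver.

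Upstream of the members, 16 core clock genes were all tested. In fasted liver 3 were higher in Lpin1-/- mice (among them the period gene Per1, log2 fold change 2.55, adjusted p = 0.0201, and the casein kinase gene Csnk1e, 0.86, adjusted p = 0.0418) and 1 was lower (Btrc, -0.80, adjusted p = 0.0365), with a median of 0.38, where 5.63% of all genes were higher and 13.2% lower. In refed liver 2 were higher (Arntl, 1.81, adjusted p = 0.0444, and the repressor Cry1, 1.76, adjusted p = 0.00986) and 2 lower (Nr1d1, encoding REV-ERBα, a repressor of Nfil3 and Arntl, -1.06, adjusted p = 0.0374, and Per3, -0.999, adjusted p = 0.0250), with a median of 0.25, where 2.6% of all genes were higher and 4.07% lower. In each state the other 12 did not pass.

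Downstream, 10 genes known as targets of PAR bZIP factors in liver were tested. In fasted Lpin1-/- liver 4 were higher, among them the cytochromes P450 Cyp2b10 (log2 fold change 3.15, adjusted p = 0.0152) and Cyp2a4 (3.00, adjusted p = 0.0101), and 2 were lower, Cyp7a1 (-3.03, adjusted p = 0.0163), the rate-limiting enzyme of bile acid synthesis, and Nr1i3 (-1.33, adjusted p = 0.0231), encoding the nuclear receptor CAR, against 5.63% of all genes that were higher and 13.2% that were lower. Cyp7a1 lay at 128, 32.7, and 45.8 RPKM in fasted WT and at 4.77, 1.56, and 24.2 in fasted Lpin1-/- liver, with no overlap. In refed liver 1 target was higher (Cyp2b10, 4.30, adjusted p = 0.00926), against 2.6% of all genes, and 9 did not pass. The median log2 fold change of the list was 0.70 in fasted and 0.22 in refed liver, with 6 and 7 of the 10 genes above 0.

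Of 10 other rhythmic liver transcripts, Pnpla2 (the triglyceride lipase ATGL) was higher in Lpin1-/- mice in both states (log2 fold change 2.30 fasted and 2.06 refed, adjusted p = 0.00197 and 0.00926), and Slc2a2 (the glucose transporter GLUT2) was lower in fasted liver (-2.27, adjusted p = 0.00158). In fasted liver 1 of the 10 was thus called higher and 1 lower, against 5.63% and 13.2% of all genes. In refed liver 1 was called higher, against 2.6%. Among 9 relatives of the members by protein family, 7 were tested, and in fasted liver the bZIP factor Cebpb was higher (1.71, adjusted p = 0.00529) and Usp21 lower (-0.76, adjusted p = 0.0369), against the same 5.63% and 13.2% of all genes. None passed the threshold in refed liver, against 6.67% of all genes.

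**Figure D4:**
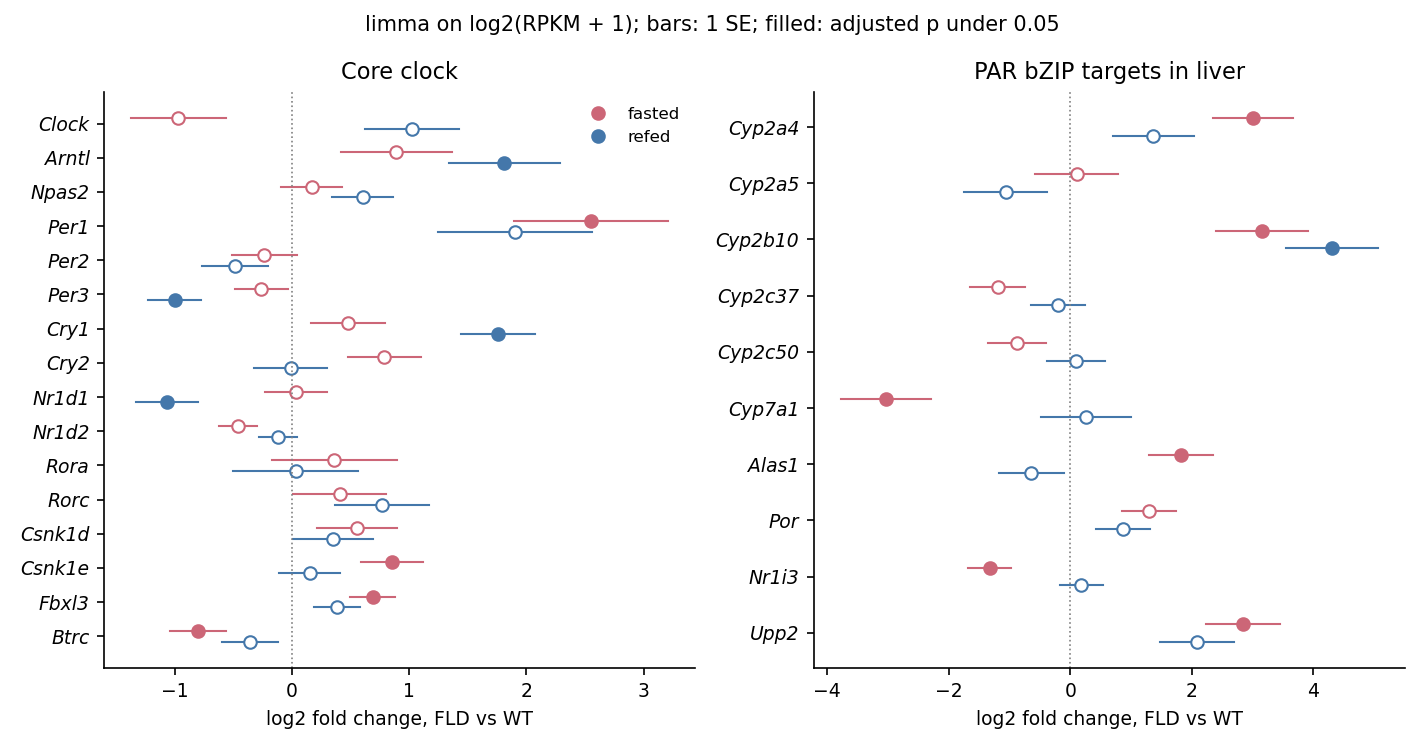
Log2 fold change between Lpin1-/- (FLD) and WT liver for 16 core clock genes (left) and 10 targets of PAR bZIP factors (right), in fasted and refed liver, on the log2(RPKM + 1) scale with bars of 1 SE. Filled points passed an adjusted p of 0.05, 4 of 16 clock genes in each state and 6 and 1 of 10 targets.

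Exon use was read from counts of inclusion and skipping. Their ratio is not free of the level of a gene, least of all where 1 form has few or no reads. Inclusion and skipping reads were deposited for 46 exon events of 7 members, 21 in fasted and 25 in refed liver, with none for Bhlhe41. Of these 38 had at least 10 reads in every library (17 fasted and 21 refed), and 3 in each state passed an adjusted p of 0.05, where 11.3% of 69644 events passed in fasted and 0.97% of 65231 in refed liver.

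In fasted liver 2 of the 3 lay in Nfil3. Both are stretches within the first intron, between the noncoding exon 1 and the exon that holds the coding sequence, and neither is an exon in GENCODE M21. For the 130-base exon at chr13:52977647-52977776, inclusion after scaling reads by the length of each form was 14.3%, 13.0%, and 19.0% in fasted WT liver. In fasted Lpin1-/- liver it was 3.40%, 4.27%, and 2.32%. Inclusion counts take in reads within the stretch as well as junction reads, so these values are not a measured share of transcripts. The groups did not overlap (15.4% ± 3.16 and 3.33% ± 0.977, SD, n = 3; log2 ratio -2.42, SE 0.64, adjusted p = 0.0293). For the 178-base exon at chr13:52977848-52978025 inclusion was 8.50% ± 2.99 in WT and 1.86% ± 0.0836 in Lpin1-/- liver (log2 ratio -2.24, adjusted p = 0.0435). A 172-base form of the 178-base stretch, at chr13:52977854-52978025, did not pass (log2 ratio -2.04, adjusted p = 0.0647 by limma). These events share their skipping reads. Neither call held when any 1 of the 6 libraries was left out (adjusted p = 0.0632 to 0.121 for the 130-base exon, and 0.0686 to 0.173 for the 178-base exon).

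The reads themselves show where the ratio moved. Skipping reads were 204, 113, and 110 in fasted WT and 575, 877, and 1112 in fasted Lpin1-/- liver, while reads of the 130-base exon were 99, 49, and 75 in WT and 59, 114, and 77 in Lpin1-/- liver. Reads of the spliced form were thus higher in every Lpin1-/- liver, and those of the intronic stretch overlapped between genotypes. In refed liver inclusion of this exon was 11.5% ± 8.65 in WT and 4.61% ± 3.04 in Lpin1-/- mice, with overlap (adjusted p = 0.483).

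**Figure D5:**
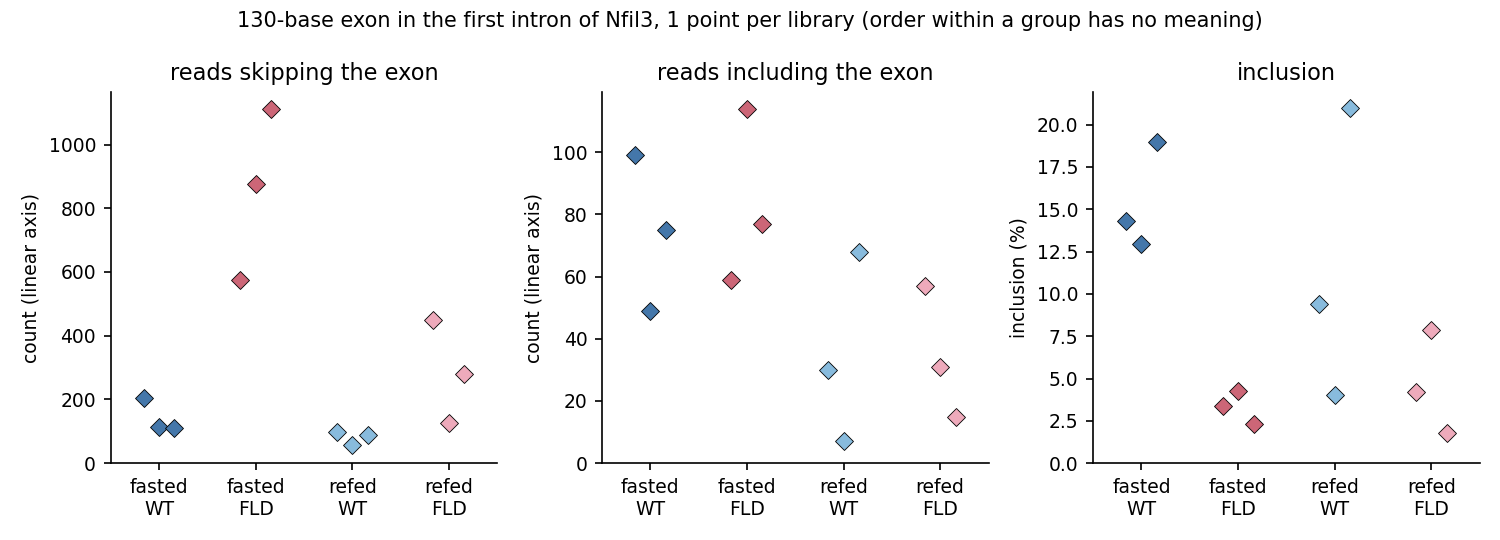
Skipping reads (left), inclusion reads (middle), and length-scaled percent inclusion (right) of the 130-base stretch in the first intron of Nfil3, with 1 point for each library and linear axes. In fasted Lpin1-/- liver (FLD) skipping reads reach 575 to 1112 against 110 to 204 in WT, and inclusion reads overlap.

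The remaining 4 calls lay in the 409-base or the 99-base form of a coding exon of Ciart that ends at chr3:95881181 (minus strand) and rest on very few skipping reads. The fasted one had 0 skipping reads in every library but 1, which had 1, so that inclusion was 100% ± 0 in WT and 99.9% ± 0.157 in Lpin1-/- liver. Its log2 ratio of 4.66 came from the 0.5 reads added to each count and from inclusion reads of 83, 30, and 30 in WT and 1389, 2565, and 1055 in Lpin1-/- liver. In refed liver the 3 events had 0 to 6 skipping reads in WT and 0 in Lpin1-/- liver, with inclusion of 88.5% to 97.6% on average in WT and 100% in Lpin1-/- liver (adjusted p = 0.0179 to 0.0372), and none passed with any 1 library left out. A second fasted event of the 409-base form had 0 skipping reads in WT and 6, 6, and 8 in Lpin1-/- liver (adjusted p = 0.234). The best covered tested event of Ciart, a 98-base stretch at chr3:95881955-95882052, was included at 28.9% ± 19.8 in refed WT and 27.1% ± 10.4 in refed Lpin1-/- liver (adjusted p = 0.988).

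In the other members no event passed. Dbp included the 411-base exon at chr7:45706606-45707016 at 83.8% ± 1.08 in refed WT and 79.2% ± 1.69 in refed Lpin1-/- liver, which did not overlap (log2 ratio -0.47, SE 0.50, adjusted p = 0.725). For the 111-base form of this exon, with the same start, the values were 79.1% ± 0.241 and 72.9% ± 1.86 (adjusted p = 0.687). In fasted liver the shorter form was included at 91.9% ± 2.83 in WT and 85.8% ± 15.3 in Lpin1-/- mice (adjusted p = 0.695). The 117-base exon of Tef at chr15:81820539-81820655 was included at 7.41% ± 3.90 in fasted WT, 3.96% ± 1.36 in fasted Lpin1-/-, 10.6% ± 0.617 in refed WT, and 10.8% ± 3.5 in refed Lpin1-/- liver (adjusted p = 0.479 and 0.997). The best covered tested events of Hlf, Bhlhe40, and Usp2 had fewer than 20 reads of the rarer form in every library and adjusted p-values from 0.0554 to 0.299. A better covered 258-base exon of Usp2 (chr9:44068038-44068295) had too few WT reads to be tested in either state. Its inclusion was 36.5% ± 55.2 in fasted WT and 68.9% ± 13.6 in fasted Lpin1-/- liver. In refed liver it was 9.82% ± 8.87 in WT and 35.7% ± 2.52 in Lpin1-/- mice.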

How the data were processed

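Liver RNA-Seq of 12 mice was grouped by the labels into 4 groups of 3. The authors aligned reads to GRCm38 with HISAT2 (2.0.5), counted them per gene with HTSeq (0.6.0), and deposited RPKM, scaled by transcript length and mapped reads. The count test named in the methods (DESeq) needs counts, so it could not be used on RPKM. For exons the authors deposited rMATS inclusion and skipping counts, listed by group without replicate numbers, and their own p-values and FDR, which were not used. The methods state a depth aimed at, but RPKM do not give the reads of each library. Relative depth came from the ratios of low RPKM values.

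Here, log2(RPKM + 1) was fitted for the 11507 genes whose mean reached 0.5 RPKM with limma (3.58.1, R 4.3.3) in 1 model of 4 groups with a variance trend, and p-values were adjusted by Benjamini-Hochberg over all genes (threshold 0.05). Exon events with at least 10 reads in every library were fitted as the log2 ratio of their length-scaled inclusion and skipping counts (0.5 added first) over the 6 libraries of a state. The fits were tested on simulated data. Same-numbered refed libraries of the 2 genotypes deviated together (correlations 0.162 to 0.297, other refed pairs -0.251 to 0.069), so the refed genotype comparison was also read with the replicate number as a block. This pairing is a hint from the data, and the labels name no shared litter or day. In no other comparison made here did all 3 pairs do so. Same-numbered fasted libraries of the 2 genotypes deviated in opposite ways (correlations -0.474, -0.374, and -0.226). Same-numbered libraries of fasted WT and refed Lpin1-/- liver, which differ in genotype and state, deviated together more strongly (0.743, 0.545, and 0.39). Their other pairs ranged from -0.7 to 0.628. Like deviation of same numbers is thus not particular to the refed genotype comparison. The block was fitted as common to all 12 libraries and not to the refed ones alone, so that fit does not isolate the refed pairing. With 3 mice a group, the spread between mice limits the precision. Alternative fits omitted each library in turn, used only the 6 libraries of a comparison, rescaled libraries by their median ratio, added a replicate block, dropped the variance trend, set the pseudocount to 0.1, or changed the minimum mean to 5 or 0 RPKM. For events they were at least 20 reads, 1 added to each count, and each library left out.

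The members and gene lists were chosen with earlier results of these data known. Genes named beside the members are the 2 of each direction with the largest fold change past the threshold in each list and genotype comparison, and the 2 with the profile nearest to each member. Named exon events are mainly those past the threshold and, for each member, the tested one with most reads of the rarer form. Relatives of the members were 9 genes, 8 of them in the table. Gene positions and exons are from GENCODE M21 and promoters from RefSeq (GRCm38.p6), without those of chromosome 18. Scripts used Python 3.11.15, pandas 2.3.3, numpy 2.4.6, and matplotlib 3.10.9.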

Additional observations from a re-analysis of the deposited data

Results flagged for a closer look

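Among the genes named beside the members, only Nrep had a response to refeeding that differed between genotypes past the threshold. The difference was -1.78 on the log2 scale (adjusted p = 0.0336 by limma), where 1.28% of all genes passed. Nrep was named for its likeness to Dbp over these same libraries, so its call is no independent support for a change in Dbp. Nrep lay at 2.03, 3.66, and 4.67 RPKM in fasted WT, 13.4, 14.6, and 19.0 in refed WT, 0.842, 0.487, and 0.356 in fasted Lpin1-/-, and 0.572, 0.751, and 0.896 in refed Lpin1-/- liver. For Dbp itself the difference was -1.42 (adjusted p = 0.464).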

How the results depend on the processing

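With 1 library left out, 2 to 5 members passed in fasted liver (4 with all libraries, 2 without fasted WT replicate 3) and 0 to 1 in refed liver (1 with all, 0 without refed WT replicate 2 or refed Lpin1-/- replicates 1 or 3). In refed liver 0 passed with no filter on low values. Exon events of the members past the threshold numbered 1 in fasted and 0 in refed liver with any library left out (3 in each with all), and 6 in fasted liver with 1 added to each count. Directions turned for values that passed nowhere: with 1 library left out, Bhlhe40 between refed genotypes ranged from -0.158 (without refed WT replicate 1) to 0.303, with -0.115 without refed Lpin1-/- replicate 3, Hlf on refeeding in WT from -0.122 (without refed WT replicate 3) to 0.300, with -0.0556 without fasted WT replicate 2 and -0.0693 with rescaled libraries, and the difference in response of Usp2 from -0.762 to 0.163 (without refed WT replicate 3). The cause was not tested. A minimum of 5 RPKM leaves out Bhlhe41. Over all genes, 198 calls on refeeding in WT liver became 76 with rescaled libraries, 93 with the block, and 0 with only the 6 libraries compared. The 2168 fasted genotype calls became 1006 with only 6 libraries, and the 147 differences in response 307 with rescaled libraries, 88 with no filter, and 81 with the block. With 1 library left out, the fasted genotype calls numbered 1040 (without fasted WT replicate 3) to 2316, the 767 refed ones 243 (without refed Lpin1-/- replicate 3) to 1048, those on refeeding 23 (without fasted WT replicate 2) to 229 in WT and 1119 (without refed Lpin1-/- replicate 2) to 3105 in Lpin1-/- liver (2382 with all), and the differences in response 30 (without refed Lpin1-/- replicate 3) to 176.

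Replicate numbers were not shown to pair the mice. Deviations of same-numbered libraries from their group means correlated between -0.474 and 0.743 over all groups. With the replicate number as a block, 2 members passed in refed liver, Dbp and Nfil3 (adjusted p = 0.0392), and Hlf lost its call in fasted liver (0.0688), while the block changed no other call of a member and none of the 6 refed calls in the lists of related genes.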
